A study of Mus musculus with 12 samples.

Results

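Baseline translation was described in the control cells of the series, WT mouse embryonic fibroblasts (MEFs) transduced with a lentiviral shRNA named shSCR. Their 4 libraries, of the 12 in the series, were 2 RNAseq and 2 ribosome profiling libraries. A gene was kept when each of the 4 libraries held 20 or more reads on its coding sequence, which left 7029 of the 20661 genes in the files. The cells carried no *Arf* deletion and no shRNA against ARF, were labelled C57BL/6J and passage 4 (the study's methods name B6129SF2/J for WT and another strain for *Arf*-/- MEFs, so these groups may differ in background), and had been given the same kind of virus as the other groups, so untransduced cells were not part of the comparison. The other groups of the series, used here only to see whether the same ratios recurred, were WT MEFs with an shRNA against ARF (WT-shARF) and *Arf*-/- MEFs with shSCR (ArfKO-shSCR), each with 2 libraries per assay. The labels gave a replicate number but not whether replicates came from separate cultures. The p-values therefore rest on the spread between these libraries, which may be technical, with an error estimate shared in part across genes.

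In ribosome profiling, RNA outside ribosomes is digested and the fragments protected by a ribosome are sequenced, so reads on a coding sequence count ribosomes on that mRNA. The matched RNAseq counts RNA of the same coding sequences, from total RNA with ribosomal RNA removed. The ratio of the 2 values is taken as the translation efficiency (TE) of a gene relative to the others. A ratio is relative because each library is scaled to its own total: it says nothing of how much protein a cell makes in all, and a higher TE in footprints can come from more initiation or from slower ribosomes. In fibroblasts, mRNAs of the secreted matrix and the cytoskeleton are abundant, while ribosomal protein mRNAs, ferritin mRNAs and mRNAs with upstream open reading frames (uORFs) are known as mRNAs whose translation is held back or switched by the state of the cell.

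The fibroblast label was checked against markers. Of 12 fibroblast markers listed, 9 passed the minimum, and their list summed to 21257 and 24004 CPM, the count of a gene scaled to a common library total, in RNAseq and 49819 and 46997 CPM in ribosome profiling. *Pdgfra*, *Dcn* and *Lum* were near 0, at no more than 5.04 CPM in any of the 4 libraries. Macrophage markers summed to 456 to 617 CPM, led by *Lyz2* and *Csf1r*, neural markers to 645 to 788 CPM, led by *Nes*, and the epithelial, endothelial and muscle lists to at most 110 CPM. All 5 red blood cell markers had no read. The part of other cells in the ratios below was not tested.

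The RNAseq libraries held 2803035 and 1578627 reads on genes and the ribosome profiling libraries 3109431 and 2544319. The replicates were alike: the median gene differed by 0.23 on the log2 scale between RNAseq replicates and by 0.21 between ribosome profiling replicates, with Pearson r across genes of 0.971 and 0.974. The TE itself spread far wider than that, with a standard deviation (SD) over genes of 0.90 and a median standard error (SE) of 0.25. Log2 ratios below are given ± SE, from 2 libraries per assay. This SE is the absolute log2 ratio divided by the square root of the F statistic of the test below. Its error estimate is shared in part across genes, so it can be smaller than the spread of a gene's own replicates. From percentile 5 to percentile 95 the ratio ranged over 6.35-fold, from a log2 ratio of -1.37 to 1.29, around a median of -0.02. Tested with edgeR's quasi-likelihood test and Benjamini-Hochberg adjustment over all 7029 genes, 47.3% of genes differed between footprints and RNA, 1718 of them higher in footprints (24.4% of all genes) and 1609 lower (22.9%). At least 2-fold differences were found for 662 higher and 725 lower genes. These shares are the background against which each family below is to be read. The plot of footprints against RNA shows that most genes lie in a band around equal CPM, with a sparse set of genes far below it.

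**Figure D1:**
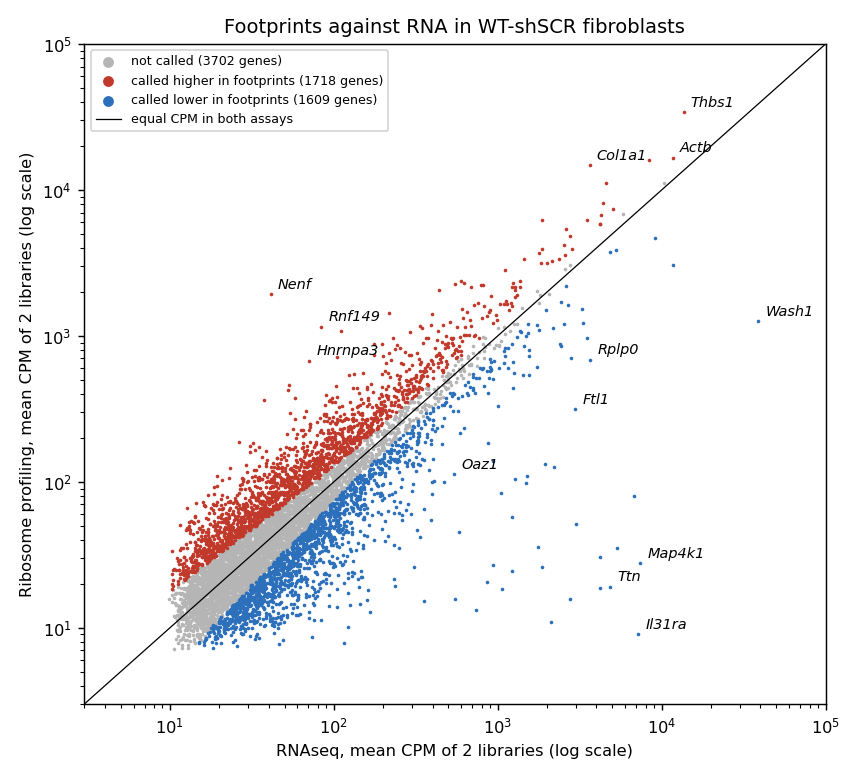
Mean CPM of 2 ribosome profiling libraries (vertical axis, log scale) against mean CPM of 2 RNAseq libraries (horizontal axis, log scale) for the 7029 genes, one point per gene. Red points are the 1718 genes called higher in footprints, blue points the 1609 called lower and grey points the 3702 not called. *Nenf* stands above the band, and *Il31ra*, *Ttn* and *Map4k1* stand far below it.

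The most abundant genes in footprints encoded mainly cytoskeleton and secreted proteins. Compared per kilobase (kb) of coding sequence, the first in footprints was *Actb*, cytoplasmic beta actin, at 14771 CPM per kb against 10356 CPM per kb in RNAseq. It was followed by *S100a6*, a small calcium-binding protein, at 12588 CPM per kb, *Tagln*, the actin-binding transgelin, at 10276 CPM per kb, and *Acta2*, smooth muscle actin, at 9862 CPM per kb. *Actg1*, the other cytoplasmic actin, and *Thbs1*, the secreted adhesive protein thrombospondin, came next with 9848 and 9680.5 CPM per kb. The small *Tmsb4x*, an actin-monomer-binding thymosin, and *Ctgf* and *Vim* were also among the first 10. Counted as reads rather than per kb, *Thbs1* alone took 3.44% and 3.38% of all footprints but 1.26% and 1.45% of RNAseq reads.

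The order of RNAseq differed. Its first gene, per kb and by reads, was *Wash1*, annotated as a subunit of an actin-nucleating endosomal complex, which took 4.45% and 3.25% of RNAseq reads and 0.138% and 0.115% of footprints. *Ift46*, *Ankrd29* and *Ftl1* were among the first 10 per kb in RNAseq at ranks 7, 10 and 9 but stood at ranks 2975, 4678 and 260 in footprints. *Rplp1*, a ribosomal stalk protein, and *Lgals1*, a secreted lectin, stood at ranks 5 and 6 in RNAseq and at ranks 28 and 15 in footprints. Of the first 100 genes per kb in either assay, 59 were in both lists. In the other direction *Col1a1*, the alpha 1 chain of collagen I, stood at rank 148 per kb in RNAseq and at rank 18 in footprints.

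Secreted matrix and its folding machinery had high TE as a group. Among 20 collagen chains that passed the minimum, 15 were called higher and none lower, with a median log2 ratio of 0.66, and among 30 matrix glycoproteins and proteoglycans 24 were called higher and none lower, with a median of 0.85. The median over all 7029 genes was -0.02. *Col1a1* had 3433 and 3833 CPM in RNAseq and 15477 and 14123 CPM in ribosome profiling, a log2 ratio of 2.03 ± 0.11, adjusted p = 2.14e-21. All footprint values lay far above both RNAseq values. *Col1a2*, which encodes the partner chain of the same collagen I trimer, had more RNA (4345 and 4455 CPM) and fewer footprints (8412 and 7835 CPM) than *Col1a1*, with a log2 ratio of 0.88 ± 0.11, adjusted p = 1.48e-09. For *Col3a1*, the chain of collagen III, the groups overlapped, at 656 and 659.7 CPM and 766 and 655 CPM (log2 ratio 0.11 ± 0.12, adjusted p = 0.477). *Fn1*, fibronectin, was higher, with 7034 and 9633 CPM in RNAseq and 16017 and 15825 CPM in ribosome profiling (log2 ratio 0.93 ± 0.11, adjusted p = 1.21e-09), and *Sparc*, a collagen-binding matrix protein, had 1859 and 1858 CPM and 4016 and 3909 CPM (log2 ratio 1.09 ± 0.11, adjusted p = 1.69e-11). Among the matrix genes *Lama4*, a laminin chain, was lowest without being called, at -0.46 ± 0.23, adjusted p = 0.0966, and *Fbln1*, fibulin, highest at 2.04 ± 0.29, adjusted p = 1.07e-07.

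The enzymes that modify collagen followed, with 11 of 17 called higher, 1 lower and a median of 0.68. *Lox*, which oxidises collagen lysines so that fibrils can be crosslinked, had 505 and 591 CPM in RNAseq against 2348 and 2168 CPM in ribosome profiling, a log2 ratio of 2.05 ± 0.12, adjusted p = 1.71e-19, while *P3h3*, a prolyl hydroxylase family member, was the one called lower (-0.61 ± 0.21, adjusted p = 0.0174). *P3h3* was not called without RNAseq replicate 2 or ribosome profiling replicate 2 (log2 ratio -0.50 to -0.33, adjusted p = 0.122 to 0.34) or with DESeq2 (adjusted p = 0.06). Chaperones and folding enzymes of the endoplasmic reticulum (ER), where these proteins enter the secretory route, had 14 of 17 called higher and none lower, with a median of 0.82. *Pdia3*, a disulfide isomerase, was highest, with 378 and 502 CPM in RNAseq and 2027 and 2078 CPM in ribosome profiling (log2 ratio 2.23 ± 0.13, adjusted p = 4.3e-20). *Hspa5*, the ER chaperone BiP, had 746 and 766 CPM and 1771 and 1591 CPM (log2 ratio 1.15 ± 0.12, adjusted p = 1.78e-11). *Creld2* was lowest and did not differ beyond its error (0.02 ± 0.22, adjusted p = 0.965). Together the 34 matrix genes in the files took 3.65% and 4.43% of RNAseq reads and 8.30% and 8.27% of footprints, the 44 collagen chains 1.92% and 2.06% against 4.29% and 4.00%, and the 18 ER genes 0.694% and 0.759% against 1.49% and 1.48%.

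**Figure D2:**
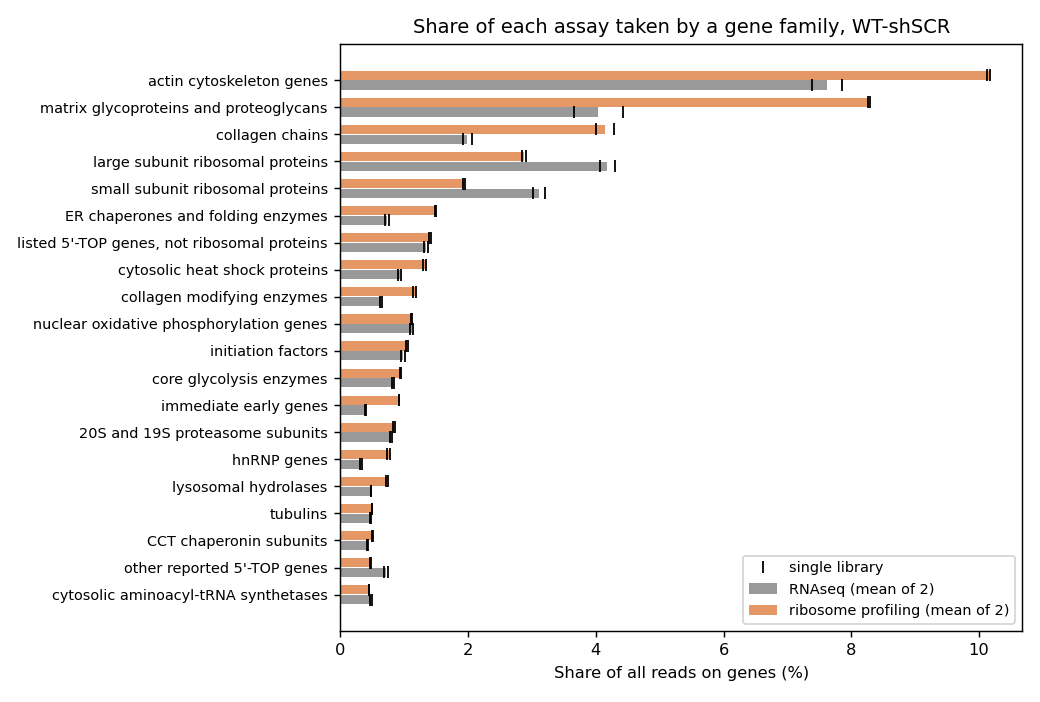
Share of all reads on genes (percent, horizontal axis) taken by each gene family in RNAseq (grey bars) and ribosome profiling (orange bars), as the mean of 2 libraries, with each library as a tick. Matrix glycoproteins, collagens and ER chaperones took a larger share of footprints than of RNA, and ribosomal proteins of both subunits a smaller one.

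Actin cytoskeleton genes were also high, with 29 of 41 called higher, 3 lower and a median of 0.65. *Actg1* had 4504 and 4708 CPM in RNAseq and 11354 and 10805 CPM in ribosome profiling, a log2 ratio of 1.27 ± 0.11, adjusted p = 2.5e-14. The ratio of *Actb* was smaller, with 12216 and 11084 CPM and 17430.0 and 15805 CPM (0.51 ± 0.10, adjusted p = 4.47e-05), and that of *Acta2* did not pass the test (0.11 ± 0.10, adjusted p = 0.388). *Msn*, moesin, which ties actin to the plasma membrane, was the highest of the list at 2.02 ± 0.13, adjusted p = 4.77e-18. *Flna*, filamin A, which crosslinks actin and has a very long coding sequence, was called lower, with 8931 and 9386 CPM in RNAseq and 4649 and 4685 CPM in ribosome profiling (-0.97 ± 0.11, adjusted p = 9.12e-11). Tubulins stayed near the median of all genes, with 1 of 11 higher, 1 lower and a median of -0.04. *Vim*, the intermediate filament of these cells, had 0.57 ± 0.11, adjusted p = 1.9e-05. *Actb* was not called without ribosome profiling replicate 1 (log2 ratio 0.43, adjusted p = 0.0756).

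Genes of nuclear RNA-binding proteins had the highest family median. Of 19 heterogeneous nuclear ribonucleoprotein (hnRNP) genes, whose products package and splice nascent RNA, 17 were called higher and 1 lower, with a median of 1.20. *Hnrnpa3* had 69.4 and 71.5 CPM in RNAseq and 676 and 672 CPM in ribosome profiling, so that footprints were 9.58-fold above RNA (log2 ratio 3.26 ± 0.14, adjusted p = 6.45e-25). *Hnrnpa1*, which is also on the study's list of 5′-terminal oligopyrimidine (5′-TOP) genes, had 53.6 and 59.2 CPM and 240.4 and 222 CPM (log2 ratio 2.04 ± 0.16, adjusted p = 3.13e-15). *Hnrnpul1* was the one called lower, at -0.40 ± 0.16, adjusted p = 0.041. Splicing factors of the SR family with the CLK kinases that phosphorylate them had 11 of 15 higher and 2 lower, with a median of 0.93. *Srsf5* led them at 1.78 ± 0.15, adjusted p = 9.64e-14 and *Clk4* was called lower at -0.78 ± 0.30, adjusted p = 0.0299. *Clk4* was not called without RNAseq replicate 1 or ribosome profiling replicate 1 (log2 ratio -0.71 to -0.56, adjusted p = 0.101 to 0.355), with DESeq2 (adjusted p = 0.102) or with no count minimum (adjusted p = 0.0769). *Hnrnpul1* was not called without RNAseq replicate 1, RNAseq replicate 2 or ribosome profiling replicate 2 (log2 ratio -0.44 to -0.19, adjusted p = 0.0508 to 0.505), with DESeq2 (adjusted p = 0.137), with no count minimum (adjusted p = 0.123) or with filterByExpr (adjusted p = 0.0647). *Npm1*, nucleophosmin, the abundant nucleolar chaperone that binds ARF, had 403 and 385 CPM in RNAseq and 1233 and 1126 CPM in ribosome profiling (log2 ratio 1.58 ± 0.12, adjusted p = 2.59e-15).

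Cytosolic heat shock proteins were high on balance, with 8 of 11 called higher and 1 lower, and a median of 0.74. *Dnaja1*, a co-chaperone, had 1.67 ± 0.15, adjusted p = 1.7e-13 and *Hsp90ab1* 1.23 ± 0.12, adjusted p = 2.51e-12, while *Hspa8*, the constitutive HSP70, was the one called lower, with 5009 and 4663 CPM in RNAseq and 3750.0 and 3708 CPM in ribosome profiling (-0.38 ± 0.11, adjusted p = 0.00376). *Hspa8* was not called without ribosome profiling replicate 1 or ribosome profiling replicate 2 (log2 ratio -0.39 to -0.37, adjusted p = 0.114 to 0.134). Among 7 members with no pseudogene named after them the median was 0.40. Immediate early genes, short-lived mRNAs induced by serum and stress, had 11 of 19 higher and 3 lower, with a median of 0.77. *Ctgf*, a secreted growth factor, was highest, with 1835 and 1885 CPM and 6247 and 6154 CPM (1.74 ± 0.11, adjusted p = 2.41e-18), *Myc* had 1.24 ± 0.24, adjusted p = 2.13e-05 and *Jun* 0.89 ± 0.19, adjusted p = 0.000144, and *Zfp36*, an mRNA decay factor, was lowest at -1.11 ± 0.24, adjusted p = 0.000139. *Zfp36* was not called without RNAseq replicate 1 (log2 ratio -0.69, adjusted p = 0.0891).

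The cell cycle and p53 genes divided. Of 24, 11 were called higher and 4 lower, with a median of 0.61. *Cdkn1a*, the cyclin-dependent kinase inhibitor p21, had 117 and 130.1 CPM in RNAseq and 560.5 and 513 CPM in ribosome profiling, a log2 ratio of 2.12 ± 0.14, adjusted p = 2.67e-18. *Trp53* had 1.24 ± 0.15, adjusted p = 1.28e-09, *Mdm2*, the ligase that degrades p53, 1.02 ± 0.15, adjusted p = 9.77e-08 and *Ccnd1*, cyclin D1, 0.62 ± 0.14, adjusted p = 0.000389. *Cdkn2a*, whose 2 products ARF and INK4A cannot be separated in counts per gene, had 44.0 and 40.1 CPM in RNAseq and 92.2 and 65.1 CPM in ribosome profiling (0.90 ± 0.22, adjusted p = 0.000714). The footprints of its replicates were further apart than its RNA. *Cdkn2a* was not called without ribosome profiling replicate 1 (log2 ratio 0.62, adjusted p = 0.0746). *Ccnd1* was not called without ribosome profiling replicate 1 (log2 ratio 0.46, adjusted p = 0.0527). *Ei24* was the lowest, with 121 and 119 CPM and 33.7 and 28.7 CPM (-1.94 ± 0.20, adjusted p = 3.28e-11).

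Genes of cholesterol supply had 9 of 19 higher and 1 lower, with a median of 0.56. *Idi1* was highest (2.39 ± 0.28, adjusted p = 1.01e-09) and *Mvk* was called lower (-0.90 ± 0.28, adjusted p = 0.00813). *Mvk* was not called without RNAseq replicate 1 or ribosome profiling replicate 2 (log2 ratio -0.73 to -0.61, adjusted p = 0.121 to 0.159). Lysosomal hydrolases and membrane proteins had 15 of 29 higher and 2 lower, with a median of 0.42, from *Smpd1* (-0.87 ± 0.24, adjusted p = 0.00226) to *Lamp2* (1.37 ± 0.14, adjusted p = 3.28e-11). *Smpd1* was not called without RNAseq replicate 1 or ribosome profiling replicate 1 (log2 ratio -0.67 to -0.59, adjusted p = 0.0561 to 0.15). The nuclear genes of oxidative phosphorylation were spread around the median of all genes, with 21 of 73 higher and 13 lower and a median of 0.09, from *Cox7a2l* (-0.96 ± 0.23, adjusted p = 0.000549) to *Ndufa5* (1.80 ± 0.28, adjusted p = 6.82e-07). Mitochondrial ribosomal proteins had 7 of 69 higher, 17 lower and a median of -0.01. Core glycolysis enzymes had 4 of 15 higher and 1 lower, and *Gapdh* did not differ beyond its error (0.08 ± 0.13, adjusted p = 0.654).

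**Figure D3:**
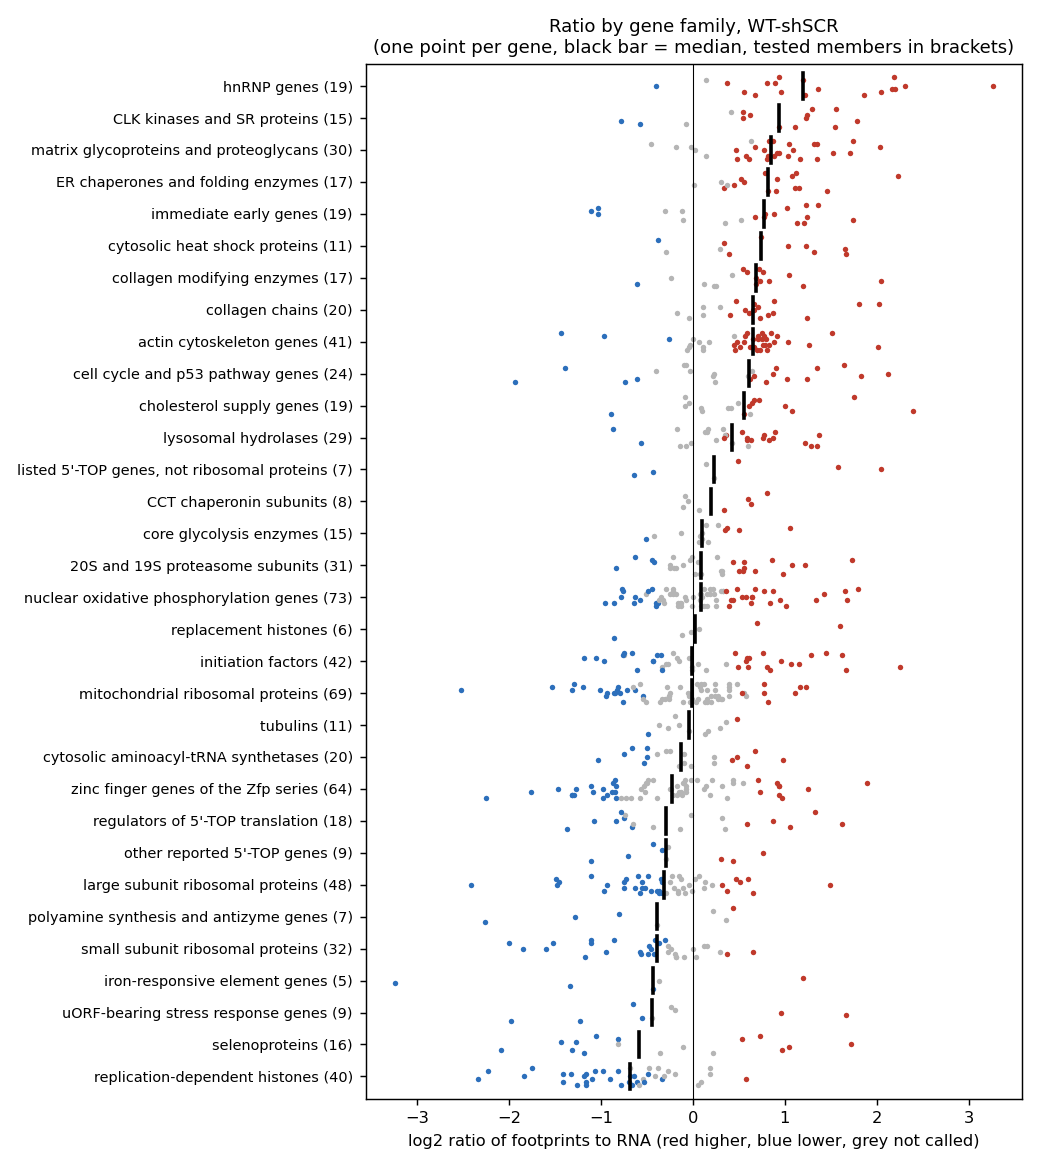
log2 ratio of footprints to RNA (horizontal axis) for each tested gene of the gene families (rows, number of tested genes in brackets), sorted by family median (black bar). Red points were called higher, blue points lower and grey points were not called. The hnRNP genes stand highest with a median of 1.20 and the replication-dependent histones lowest with a median of -0.68.

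Ribosomal protein genes were on the low side. Of 48 large subunit ribosomal proteins that passed the minimum, 7 were called higher and 24 lower, with a median of -0.32, and of 32 small subunit proteins 2 were higher and 18 lower, with a median of -0.39. Of all genes, 22.9% were called lower. *Rplp0*, which forms the base of the ribosomal stalk, was lowest, with 3927 and 3427 CPM in RNAseq and 745 and 633 CPM in ribosome profiling, so that RNA was 5.34-fold above footprints (log2 ratio -2.42 ± 0.12, adjusted p = 2.43e-22). *Rps2*, the lowest of the small subunit, had 3083 and 2521 CPM and 681 and 723 CPM (-2.0 ± 0.12, adjusted p = 3.49e-19), and *Rps14* had -1.53 ± 0.12, adjusted p = 1.1e-14. *Rpl22* had -1.11 ± 0.13, adjusted p = 1.01e-09 and *Rpl23a* -0.53 ± 0.12, adjusted p = 0.000391. Not called were 17 large and 12 small subunit genes. Of the 7 large subunit genes called higher *Rpl36al* was highest, with 97.2 and 99.9 CPM in RNAseq and 283 and 269.8 CPM in ribosome profiling (1.49 ± 0.14, adjusted p = 2.39e-12). Of the 2 small subunit genes called higher *Rps24* was highest, at 0.65 ± 0.12, adjusted p = 1.78e-05. Most of these genes have processed pseudogenes, and reads with more than one alignment were not counted. The 12 large subunit members without a pseudogene named after them had a median of -0.11 and the 9 small subunit members -0.31. Of the 7 listed 5′-TOP genes that encode no ribosomal protein, 3 were higher and 2 lower, with a median of 0.23. *Eef2* was lower (-0.44 ± 0.11, adjusted p = 0.000843), as was *Eef1b2* (-0.64 ± 0.12, adjusted p = 1.74e-05), *Eef1a1* (0.23 ± 0.11, adjusted p = 0.0651) and *Pabpc1* (0.14 ± 0.14, adjusted p = 0.427) did not pass the test, and *Tpt1* was higher (0.50 ± 0.12, adjusted p = 0.000897). *Gnb2l1*, the ribosomal scaffold RACK1, had 3563 and 3001 CPM and 1562 and 1477 CPM (-1.11 ± 0.12, adjusted p = 2.89e-11). It was the lowest of 9 other genes reported as 5′-TOP, of which 3 were higher and 4 lower, with *Eif3e*, an initiation factor subunit, highest at 0.76 ± 0.14, adjusted p = 1.08e-05. *Eef2* was not called without ribosome profiling replicate 1 or ribosome profiling replicate 2 (log2 ratio -0.46 to -0.42, adjusted p = 0.0607 to 0.0814). *Eef1a1* was called higher without either RNAseq replicate (log2 ratio 0.23 to 0.24) and *Pabpc1* without RNAseq replicate 2 (log2 ratio 0.51).

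A 5′-TOP mRNA begins with a C followed by a run of C and T bases, through which its translation is coupled to mTOR signalling. A C followed by 4 or more C or T bases, searched on the sense strand at the RefSeq start and at most 2 bases to either side, was found in 20 of 60 ribosomal protein genes with an entry in the promoter table (33.3%), in 12% of other members and in 10.6% of all symbols in the table. The median log2 ratio was -0.27 for the 20 and -0.28 for the other 40. The study lists most ribosomal protein genes as 5′-TOP genes, while the search found a run in 33.3% of them. The split therefore does not separate 5′-TOP genes from others, and nothing is drawn from the 2 medians. The starts of the 3 lowest and 2 highest ratios among these 20 genes are shown to let the runs be compared, from 10 bases before the annotated start to 20 after, sense strand, GRCm38.p6, with the run in capitals.
*Rpl13a*: cctgcgacaagaCCTCCTCCTTTCCCaggc
*Rpl12*: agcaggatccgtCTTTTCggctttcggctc
*Rpl18*: ctcgcaggccgCTCTTTCCCCgcccactcc
*Rpl14*: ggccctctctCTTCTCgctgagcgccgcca
*Rps24*: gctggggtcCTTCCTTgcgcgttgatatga
They lie at chr7:45128726-45128755 (minus strand), chr2:32961702-32961731 (plus strand), chr7:45718061-45718090 (plus strand), chr9:120571507-120571536 (plus strand) and chr14:24490668-24490697 (plus strand). Their log2 ratios were -1.49 for *Rpl13a*, -1.48 for *Rpl12*, -0.75 for *Rpl18*, 0.06 for *Rpl14* and 0.65 for *Rps24*. These starts were picked from the 20 genes with a run, so the presence of a run in each was fixed by the choice. Nothing is drawn from it. The lowest and highest ribosomal protein genes, *Rplp0* (log2 ratio -2.42) and *Rpl36al* (1.49), were not among the starts shown.

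Initiation factors spread to both sides, with 17 of 42 higher and 12 lower and a median of -0.01. *Eif1*, which guards start codon choice, had 124 and 155 CPM in RNAseq and 420.0 and 454 CPM in ribosome profiling (1.66 ± 0.14, adjusted p = 2.31e-14), and *Eif1a* was the highest (2.25 ± 0.28, adjusted p = 3.79e-09). *Eif4e*, the cap-binding protein, had 0.59 ± 0.19, adjusted p = 0.00959, while *Eif4g1*, the scaffold it binds, had -0.75 ± 0.12, adjusted p = 1.05e-06 and *Eif4ebp1*, its repressor, -0.84 ± 0.23, adjusted p = 0.00206. *Eif2b5*, a subunit of the exchange factor that recycles eIF2, was lowest at -1.19 ± 0.16, adjusted p = 1.39e-08. *Eif4e* was not called without ribosome profiling replicate 2 (log2 ratio 0.45, adjusted p = 0.155). Regulators of 5′-TOP translation had 5 of 18 higher and 6 lower. *Larp1*, which binds the TOP motif, did not differ beyond its error (-0.02 ± 0.15, adjusted p = 0.936), *Akt1* was lowest (-1.36 ± 0.14, adjusted p = 8.26e-12) and *Pdcd4*, an inhibitor of eIF4A, highest (1.62 ± 0.32, adjusted p = 4.04e-05).

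For stable complexes, whose subunits are needed in fixed proportions, footprint density per kb was more even between subunits than RNA density per kb in some but not in others. The 7 CCT chaperonin subunits with an annotated coding sequence had an SD over subunits, in log2 CPM per kb, of 0.46 and 0.44 in RNAseq and of 0.21 and 0.15 in ribosome profiling. The 31 proteasome subunits had 0.95 and 0.82 against 0.69 and 0.69, the 48 large subunit ribosomal proteins 1.24 and 1.19 against 0.99 and 0.91, and the 32 small subunit proteins 0.76 and 0.72 against 0.57 and 0.61. In each of these 4 lists both ribosome profiling libraries lay below both RNAseq libraries, and they did so also among members without a namesake pseudogene. Over all genes the order was the opposite, with 1.84 and 1.76 in RNAseq and 1.99 and 1.96 in ribosome profiling. The 69 mitochondrial ribosomal proteins had 0.90 and 0.95 against 0.93 and 0.98, with overlap, and the 73 oxidative phosphorylation genes 1.02 and 0.99 against 1.09 and 1.10. Within the CCT ring *Cct8* had 0.80 ± 0.12, adjusted p = 4.34e-07 and *Cct3* -0.10 ± 0.12, adjusted p = 0.505, and within the proteasome *Psmc6* had 1.73 ± 0.15, adjusted p = 2.75e-14 and *Psmd8* -0.84 ± 0.13, adjusted p = 3.35e-07. These spreads are descriptions without a test.

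Both ferritin subunits, which store iron, had low TE. *Ftl1* had 3193 and 2736 CPM in RNAseq and 354 and 275 CPM in ribosome profiling, so that RNA was 9.42-fold above footprints (log2 ratio -3.24 ± 0.13, adjusted p = 3.35e-26). *Fth1* had 268 and 255 CPM and 99.7 and 108 CPM (-1.33 ± 0.14, adjusted p = 5e-11). No footprint library of either gene reached an RNAseq library. *Tfrc*, the receptor that brings iron into the cell, was on the other side, with 75.7 and 59.2 CPM in RNAseq and 162 and 152 CPM in ribosome profiling (1.20 ± 0.17, adjusted p = 6.32e-08). The iron-responsive element (IRE) is a hairpin with a CAGTGN loop, bound by iron regulatory proteins when iron is scarce: in a 5′ UTR the binding blocks initiation, in a 3′ UTR it protects the mRNA. The loop closed by 5 Watson-Crick pairs, with A, C or T as its last base, searched on the sense strand, occurred in the 5′ UTR of 5 of 6842 members (0.0731%) in the transcript with the longest coding sequence. Both ferritin genes were among them. In 3′ UTRs it occurred in 25 of 6996 members (0.357%), with 3 copies in *Tfrc*. The ferritin elements are shown because they carry the loop in the same setting, with the loop in capitals.
*Fth1*: tgcttcaaCAGTGCttgaacgg
*Ftl1*: tgcttcaaCAGTGTttgaacgg
They lie in the 5′ UTR at chr19:9982736-9982757 (plus strand) and chr7:45459782-45459803 (minus strand) (GRCm38). The 2 windows differ in the last base of the loop. *Ftl1* has a namesake pseudogene and an annotated miRNA gene inside its coding sequence, and the part of either in its count was not tested.

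Polyamine genes also held low ratios. *Oaz1*, antizyme, which binds and removes ornithine decarboxylase when polyamines are abundant, had 537 and 542 CPM in RNAseq and 108 and 118 CPM in ribosome profiling, so that RNA was 4.78-fold above footprints (log2 ratio -2.26 ± 0.14, adjusted p = 1.65e-19). *Odc1*, the decarboxylase itself, had 338 and 311 CPM and 137 and 129.8 CPM (-1.28 ± 0.14, adjusted p = 4.6e-11). *Azin1*, the antizyme inhibitor, did not pass the test (-0.39 ± 0.23, adjusted p = 0.156) and *Srm*, spermidine synthase, was higher (0.44 ± 0.15, adjusted p = 0.0156). *Srm* was not called without RNAseq replicate 2 or ribosome profiling replicate 1 (log2 ratio 0.34 to 0.39, adjusted p = 0.091 to 0.128) or with DESeq2 (adjusted p = 0.0631). Over the 7 polyamine genes tested, 1 was higher and 3 lower, with a median of -0.39. *Amd1*, which makes the aminopropyl donor, was listed at 0 in all 4 libraries. Antizyme is made only when ribosomes shift frame at a stop codon, and the site is shown as the transcript has it, with the frameshift codon, the stop codon and the next base in capitals.
*Oaz1*: tcggtggtgcTCCTGATgtccctcacc
It lies in an exon at chr10:80828282-80828308 (plus strand) (GRCm38).

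Selenoproteins, in which a TGA codon inside the reading frame is read as selenocysteine, were the family with the second lowest median, -0.59, with 5 of 16 higher and 7 lower. *Gpx1*, a glutathione peroxidase, had 339 and 273 CPM in RNAseq and 137 and 134 CPM in ribosome profiling (-1.18 ± 0.14, adjusted p = 9.77e-10), and *Gpx4*, which repairs lipid peroxides, 502 and 408 CPM and 181 and 184 CPM (-1.32 ± 0.13, adjusted p = 1.15e-11). *Sephs2*, which makes the selenium donor, was lowest, with 73.5 and 78.9 CPM and 20.7 and 14.7 CPM (-2.09 ± 0.26, adjusted p = 2.15e-09). *Selk*, an ER membrane protein, was highest, with 17.7 and 27.7 CPM and 84.8 and 60.5 CPM (1.72 ± 0.26, adjusted p = 3.22e-07). *Txnrd1*, thioredoxin reductase, had 0.53 ± 0.14, adjusted p = 0.00104. *Txnrd1* was not called without ribosome profiling replicate 2 (log2 ratio 0.40, adjusted p = 0.0622).

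The position of the codon differed along the list. In the longest annotated coding sequence the first in-frame TGA lay before the middle of the sequence in 6 of the 16 genes, of which 1 was called higher and 4 lower, with a median log2 ratio of -1.23. It lay past the middle in 10, of which 4 were higher and 3 lower, with a median of 0.06. *Sepw1* (codon 13 of 88), *Sephs2* (63 of 452), *Gpx1* (47 of 201) and *Selm* (48 of 145) were called lower, at log2 ratios of -1.44, -2.09, -1.18 and -1.28. *Vimp* (189 of 190), *Selk* (92 of 94), *Sepn1* (428 of 557) and *Txnrd1* (612 of 613) were called higher, at 0.97, 1.72, 1.05 and 0.53. *Gpx4* (129 of 253, -1.32), *Selt* (49 of 195, 0.73), *Selo* (665 of 667, -0.82) and *Txnrd2* (526 of 527, -1.06) went against that order. The codon of *Gpx4* lay at 51% of the length, next to the dividing line, so its side may depend on the transcript used. The split was made after the values were seen and has no test. *Selo* was not called without RNAseq replicate 2 or ribosome profiling replicate 1 (log2 ratio -0.78 to -0.62, adjusted p = 0.0528 to 0.109). *Selt* was not called without RNAseq replicate 1 or ribosome profiling replicate 1 (log2 ratio 0.63 to 0.65, adjusted p = 0.0813 to 0.0848). *Txnrd2* was not called without RNAseq replicate 2 (log2 ratio -0.89, adjusted p = 0.0978) or with DESeq2 (adjusted p = 0.0576). The surroundings of the codon are shown for members of both kinds, with 12 bases on each side and the TGA in capitals.
*Gpx1*: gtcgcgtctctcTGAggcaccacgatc
*Gpx4*: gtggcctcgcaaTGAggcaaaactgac
*Sepw1*: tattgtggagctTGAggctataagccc
*Sephs2*: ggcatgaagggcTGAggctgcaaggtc
*Selk*: atggctggtggaTGAggaaggtaaatg
*Vimp*: tcatctggcggcTGAaactaagactct
*Sepn1*: gaccagtcctgcTGAggttccgggcgg
*Txnrd1*: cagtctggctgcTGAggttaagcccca
These windows lie at chr9:108339439-108339465 (plus strand), chr10:80054725-80054751 (plus strand), chr7:15920452-15922256 (minus strand), chr7:127273719-127273745 (minus strand), chr14:29973428-29974482 (plus strand), chr7:66088832-66088858 (plus strand), chr4:134540925-134542352 (minus strand) and chr10:82896025-82896051 (plus strand) (GRCm38), with an intron inside the windows of *Sepw1*, *Selk* and *Sepn1*. Together the 19 selenoprotein genes in the files took 0.179% of RNAseq reads and 0.151% of footprints.

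Genes listed here as uORF-bearing stress response genes had a median of -0.44, with 2 of 9 higher and 4 lower. Whether uORFs act on each listed gene was not tested. *Atf4*, the transcription factor of the integrated stress response, had 162 and 118 CPM in RNAseq and 54.7 and 66.7 CPM in ribosome profiling (-1.22 ± 0.18, adjusted p = 1.75e-07), and *Slc35a4* was lowest (-1.97 ± 0.31, adjusted p = 6.82e-07). *Eif1* was the highest of this list too. *Ddit3*, which encodes the stress factor CHOP, missed the minimum, with 9.97 and 8.63 CPM in RNAseq and 3.24 and 3.10 CPM in ribosome profiling. Across all 6842 members with an annotated 5′ UTR, the median ratio fell with the number of ATG triplets in it, from 0.11 for the 3551 genes with none to -0.04 with 1, -0.16 with 2, -0.23 with 3 and -0.26 with 4. Of the genes with none, 29.6% were called higher and 18% lower, while of the 430 genes with 5 or more 14.4% were higher and 31.4% lower. The length of the 5′ UTR had no such relation, with a Spearman rho across genes of 0.01 against -0.17 for the number of ATG triplets.

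Replication-dependent histones had the lowest family median, -0.68, with 1 of 40 higher and 26 lower. Their mRNAs end in a stem-loop in place of a poly(A) tail, and the RNAseq was made from total RNA after removal of ribosomal RNA, with no poly(A) selection. *Hist1h2bk* was lowest, with 77.9 and 43.8 CPM in RNAseq and 11.3 and 13.2 CPM in ribosome profiling (-2.34 ± 0.29, adjusted p = 4.59e-09), and *Hist2h4* the only one called higher, with 117 and 83.8 CPM and 151 and 152 CPM (0.58 ± 0.16, adjusted p = 0.00291). *Hist2h4* was not called without RNAseq replicate 2 (log2 ratio 0.38, adjusted p = 0.0678). The histone 3′ stem-loop was found within 120 bases after the stop codon, on the sense strand, in 27 of the 40 (67.5%) and in 28 of 6996 members with a 3′ UTR (0.400%). The loops of the 2 lowest and the highest member that have one are shown with 5 bases on each side, the paired stem and its loop in capitals.
*Hist1h2bk*: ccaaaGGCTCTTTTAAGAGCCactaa
*Hist1h2be*: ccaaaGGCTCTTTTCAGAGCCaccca
*Hist2h4*: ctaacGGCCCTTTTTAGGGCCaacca
They lie in the 3′ UTR at chr13:22036295-22036320 (plus strand), chr13:23585526-23585551 (minus strand) and chr3:96262934-96262959 (minus strand) (GRCm38). The stem-loop was present at both ends of the range. The 6 replacement histones tested, which are made outside S phase and are polyadenylated, had a median of 0.02, from *H2afv* (-0.86 ± 0.32, adjusted p = 0.0241) to *H3f3a* (1.60 ± 0.21, adjusted p = 1.09e-08). *H2afv* was not called without RNAseq replicate 1, RNAseq replicate 2 or ribosome profiling replicate 2 (log2 ratio -1.01 to -0.73, adjusted p = 0.0651 to 0.168), with DESeq2 (adjusted p = 0.0859) or with no count minimum (adjusted p = 0.068). Reads shared by near-identical histone copies were not counted, so the values of single histone genes are uncertain.

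**Figure D4:**
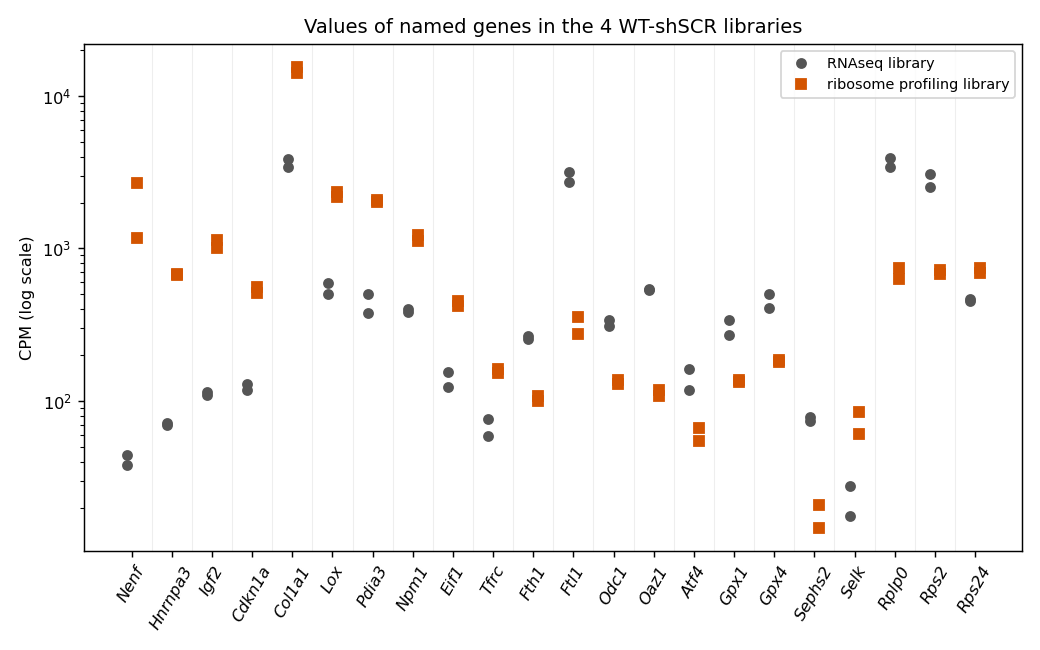
CPM (vertical axis, log scale) of 22 named genes in each of the 4 WT-shSCR libraries, with grey circles for the 2 RNAseq libraries and orange squares for the 2 ribosome profiling libraries. From *Nenf* to *Tfrc*, *Selk* and *Rps24* both squares lie above both circles, and for the ferritins, *Odc1*, *Oaz1*, *Atf4*, *Gpx1*, *Gpx4*, *Sephs2*, *Rplp0* and *Rps2* below.

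The single highest TE belonged to *Nenf*, a secreted neurotrophic factor, with 44.0 and 38.2 CPM in RNAseq and 2686 and 1171 CPM in ribosome profiling (log2 ratio 5.54 ± 0.22, adjusted p = 8.17e-27). Its footprint replicates were further apart than those of the next genes, 8299 against 3021 reads, yet both lay far above RNA. *Rnf149*, a ubiquitin ligase, had 72.4 and 95.6 CPM and 1205 and 1100.0 CPM (3.80 ± 0.15, adjusted p = 2.9e-27). *Marcks*, an actin-binding substrate of protein kinase C, had 39.2 and 35.8 CPM and 382 and 350.4 CPM (3.28 ± 0.16, adjusted p = 5.29e-23), and *Igf2*, an insulin-like growth factor of fetal tissue, 109 and 114 CPM and 1134 and 1013 CPM (3.27 ± 0.14, adjusted p = 1.03e-25). Beside *Hnrnpa3*, the 12 highest also held *Gm20594*, *Ecm1*, *Inhba*, *S100a11*, *Bahd1* and *Sh3bgrl*, with log2 ratios from 2.50 to 3.14. *Inhba*, a subunit of the secreted factor activin, had 88.3 and 121 CPM in RNAseq and 712 and 721 CPM in ribosome profiling. None of the 12 has an annotated small RNA gene inside its coding sequence, and they took 0.0825% and 0.0946% of RNAseq reads and 0.999% and 0.801% of footprints. The footprint replicates of *Gm20594* also stood apart, at 1766 against 912 reads. For these 12 genes too, the part of reads of other origin was not tested.

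The lowest TE formed a set apart. In 22 genes RNA was at least 16-fold above footprints (a log2 ratio of -4 or lower), and these genes took 11.1% and 8.61% of RNAseq reads but 0.212% and 0.178% of footprints. They included *Wash1* (log2 ratio -4.94 ± 0.14, adjusted p = 1.31e-33) and, as the 12 lowest, *Il31ra*, *Map4k1*, *Ttn*, *Ankrd29*, *P2rx5*, *Unc79*, *Ift46*, *Brf1*, *Gys1*, *Mapk15*, *Cacng1* and *C1qtnf3*. *Il31ra*, a cytokine receptor, had 9179 and 5185 CPM in RNAseq and 8.74 and 9.30 CPM in ribosome profiling (log2 ratio -9.63 ± 0.22, adjusted p = 4.53e-37). *Map4k1*, a kinase of blood cells, had 8538 and 6287 CPM and 28.2 and 27.1 CPM (-8.06 ± 0.17, adjusted p = 1.87e-38), and *Ttn*, the giant protein of muscle sarcomeres, 5049 and 4583 CPM and 6.80 and 31.4 CPM (-8.03 ± 0.24, adjusted p = 5.96e-32). The skeletal muscle markers summed to no more than 106 CPM in any library. The RNAseq replicates of the 22 differed more than those of a typical gene: replicate 1 was above replicate 2 in 18 of 22, by a median factor of 1.35. Only 2 of the 22 have an annotated small RNA gene inside the coding sequence. Most of the 22 recurred in the other groups, whose libraries were made by the same protocols. Of 21 tested in the libraries labelled WT-shARF, 19 were also at -4 or lower, and in ArfKO-shSCR 21 of 22. Per the study's methods, the lysis buffer of both assays held added yeast lysate. Whether reads from it or of other origin aligned to these coding sequences was not tested.

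The minimum itself removed genes through one assay. Through ribosome profiling alone 550 genes were lost and through RNAseq alone 1243. Of the first kind, *Mybpc3*, a sarcomere protein of heart muscle, had the most RNA, 7239.8 and 6165 CPM, against 5.18 and 10.1 CPM in ribosome profiling, and *Pemt* had 1416 and 1010.5 CPM against 0.971 and 0 CPM. Of the second kind, *Pcdh11x* had 4.80 and 2.47 CPM in RNAseq and 292 and 132 CPM in ribosome profiling, *Gngt2* 0.369 and 0.617 CPM against 218 and 119.8 CPM and *Stac* 5.54 and 0.617 CPM against 226 and 114 CPM. In these 3 genes ribosome profiling replicate 1 held about 2 times the CPM of replicate 2, as in *Nenf*. Neither kind entered the test.

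TE also varied with properties of the coding sequence. Divided into 5 equal bins by GC share, the median log2 ratio fell from 0.40 in the bin of 35.7% to 47.4% GC to -0.23 in the bin above 57.9%, and the share called higher from 41.1% to 17.1%. By length of the coding sequence it fell from 0.16 in the shortest bin, up to 801 nucleotides, to -0.21 in the longest, from 2892 nucleotides on. Across genes the Spearman rho was -0.27 for GC share, -0.17 for length and -0.16 for the share of G alone. Such a value is a description across genes, which are not replicates and share their 4 libraries. The footprints were cut with RNase T1, which cleaves after G, and the RNA by alkaline hydrolysis. The part of the nuclease in these trends cannot be told apart from that of the assay. The matrix glycoproteins kept a median of 1.11 after the length trend was removed and of 0.98 after the GC trend was removed, and the hnRNP genes 1.08 and 0.98. Small subunit ribosomal proteins, which are short, went from -0.39 to -0.56 with the length trend removed. Removing the length trend changed 9 of 32 family medians by more than 1.5 times or in sign, and removing the GC trend, an alternative chosen after seeing the data, changed 12. With the length trend removed the medians were -0.48 for large subunit ribosomal proteins, -0.18 for mitochondrial ribosomal proteins, -0.11 for initiation factors, -0.10 for tubulins, 0.04 for CCT subunits, 0.05 for glycolysis enzymes and 0.01 for the proteasome, and they turned negative for oxidative phosphorylation genes (-0.18) and replacement histones (-0.13). With the GC trend removed they were -1.06 for polyamine genes, -0.39 for zinc finger genes of the Zfp series, -0.15 for the other reported 5′-TOP genes, 0.12 for the listed 5′-TOP genes that encode no ribosomal protein, -0.05 for cytosolic tRNA synthetases, 0.17 for oxidative phosphorylation genes, 0.03 for the proteasome, 0.25 for glycolysis enzymes and 0.13 for replacement histones. The sign changed there for mitochondrial ribosomal proteins (0.04), CCT subunits (-0.09) and tubulins (0.10).

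**Figure D5:**
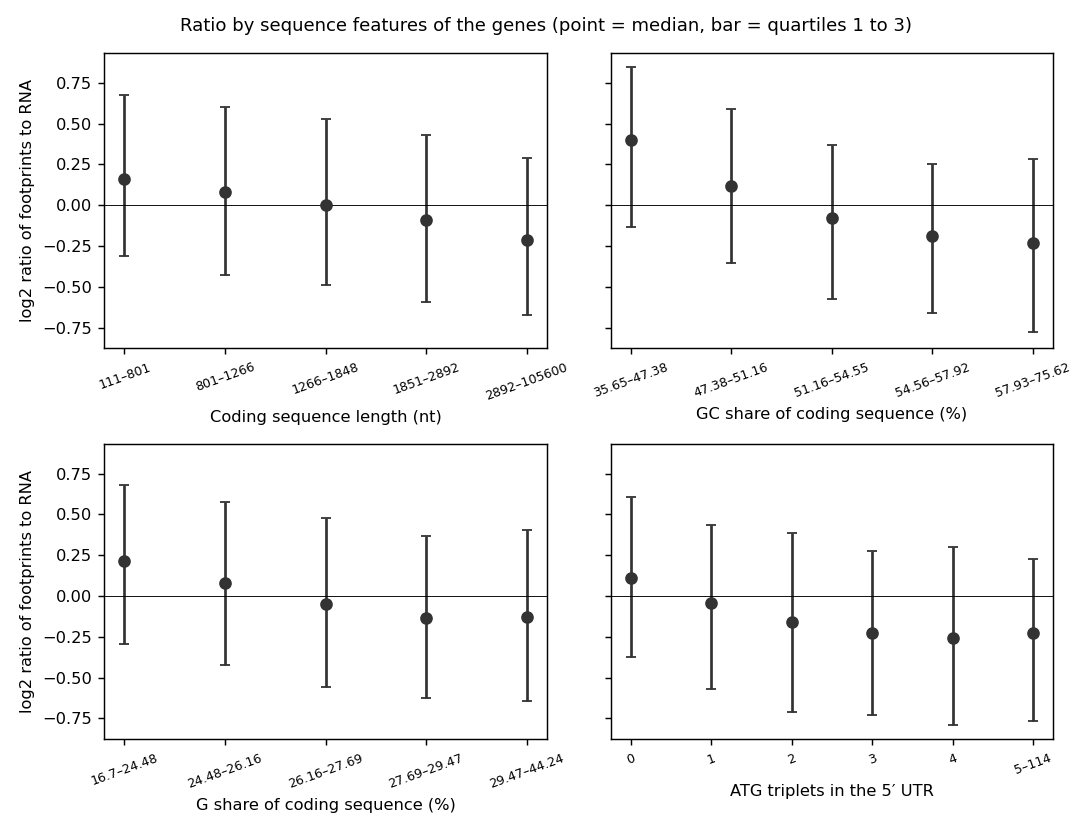
Median log2 ratio of footprints to RNA (points, vertical axis) with the lower and upper quartile (bars) in bins of genes by coding sequence length in nucleotides, GC share and G share of the coding sequence in percent, and number of ATG triplets in the 5′ UTR. The median falls from 0.40 to -0.23 over the GC bins and from 0.11 to -0.23 from no ATG triplet to 5 or more.

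Most calls recurred in the other groups, whose libraries were not used for the calls above, but not every family median did. *Cdkn2a* had 41.2 and 42.5 CPM of library total in WT-shSCR RNAseq, 28.1 and 31.1 in ArfKO-shSCR and 661 and 715 in the libraries labelled WT-shARF. Counts per gene do not separate ARF from INK4A and so do not measure the knockdown, which the study checked by immunoblot. No direction is drawn here from a knockdown of ARF. Among 1674 higher genes that could also be tested in the libraries labelled WT-shARF, 1403 were called higher again (83.8% of these and 76.9% of the shared genes called higher there), and of 1550 lower genes 1252 were called lower again (80.8% and 73.9%). Of all genes tested there 50.2% were called, 25.9% higher and 24.3% lower. In ArfKO-shSCR 1444 of 1681 were called higher again (85.9% and 76.5%) and 1272 of 1596 lower (79.7% and 74.5%), beside 25.5% higher and 24.9% lower, 50.5% in all, of all genes tested. Opposite calls were made for 2 and 4 genes. The low medians of ribosomal proteins did not recur. The large subunit median was 0.04 in the libraries labelled WT-shARF and 0.22 in ArfKO-shSCR, in place of -0.32. The small subunit median was -0.01 and 0.14, in place of -0.39, and that of selenoproteins -0.18 and -0.29, in place of -0.59. Replication-dependent histones were at -0.38 and -1.17, in place of -0.68, and collagen chains at 0.48 and 0.42, in place of 0.66. Cell cycle and p53 genes were at 0.56 and 0.28, in place of 0.61, and immediate early genes at 0.67 and 0.47, in place of 0.77. The listed 5′-TOP genes that encode no ribosomal protein were at 0.46 and 1.13, in place of 0.23. Matrix glycoproteins stayed at 0.79 and 0.81 and hnRNP genes at 1.24 and 1.32. These family medians were not tested. All 3 groups went through the same protocols, so the part of the protocols in a shared ratio cannot be told apart.

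A direct test of the difference in TE, in one model with assay, group and their interaction (edgeR, Benjamini-Hochberg), called 9 of the 7029 genes between the libraries labelled WT-shARF and WT-shSCR (0.128%) and 35 between ArfKO-shSCR and WT-shSCR (0.498%). With DESeq2 the counts were 35 higher and 2 lower in the libraries labelled WT-shARF and 40 higher and 15 lower in ArfKO-shSCR, in place of 5 and 4 and of 16 and 19. Without adjustment, 540 and 529 genes had a p under 0.05. Some genes named above were among those called. *Nenf* was lower by 1.84 on the log2 scale in ArfKO-shSCR (adjusted p = 0.00818), with a log2 ratio of 3.72 there, but was not called with DESeq2 (adjusted p = 0.153). *Bahd1* was lower in the libraries labelled WT-shARF (adjusted p = 0.0379) and in ArfKO-shSCR (adjusted p = 0.000118), where the call held with DESeq2 (adjusted p = 0.00306), which gave no adjusted p in the former. *Fth1* was higher in ArfKO-shSCR (adjusted p = 0.000198), where its log2 ratio was 0.09 in place of -1.33. For *Ftl1*, *Oaz1*, *Hnrnpa3*, *Col1a1* and *Cdkn1a* the difference was not called in either group, and their log2 ratios were -2.67, -1.69, 3.30, 2.04 and 2.44 in the libraries labelled WT-shARF and -2.70, -1.78, 3.54, 1.91 and 2.67 in ArfKO-shSCR.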

How the data were processed

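For RNAseq the authors removed ribosomal RNA from total RNA and fragmented it by alkaline hydrolysis. For ribosome profiling they treated lysates with RNase T1 and purified the footprints. Both assays received a spike of yeast lysate, which the authors did not use for normalization. They, per the labels and methods, used UMI-tools, cutadapt, Bowtie2, TopHat (mm10) and HTSeq on coding features; versions are not given in the sources used here. The files deposited by the authors hold unnormalized read counts for each gene. Reads without a gene or with several alignments were left out of library sizes (multiple alignments made up 80.3% to 81.3% of RNAseq and 48.4% to 52.7% of footprint alignments). Alignments on no counted feature numbered 4.14 and 3.14 per read on genes in RNAseq and 0.341 and 0.249 in ribosome profiling. Counts were scaled with TMM factors and tested in edgeR 4.0.16 (glmQLFit, glmQLFTest, 4 libraries, 2 residual degrees of freedom, Benjamini-Hochberg over 7029 genes, adjusted p under 0.05), with 20 or more counts in each library. An exact permutation of 2 against 2 libraries cannot go below p = 0.33. On simulated data 68.6% of 200 genes changed 2-fold were recovered. The members and lists were chosen with earlier results of these data known. Named genes were the 10 most abundant of each assay, the 12 highest and 12 lowest called ratios without overlap, the highest and lowest of each family, a fixed list, the 8 genes of each assay that most clearly failed the minimum, and markers. *Hist1h2be*, *Rpl12*, *Rpl13a*, *Rpl14*, *Rpl18*, *Selm*, *Selo*, *Selt*, *Sepn1*, *Sepw1*, *Txnrd2* and *Vimp* were named after their values were seen. Sequences came from GENCODE M21 transcripts (GRCm38) and the RefSeq promoter table (GRCm38.p6). Alternatives were DESeq2 1.42.0, other factors, other minimums, a replicate block and leaving out each library. Some items withheld for evaluation are not reported here.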

Additional observations from a re-analysis of the deposited data

Results flagged for a closer look

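The TE of some genes named in the text differed between groups, by the edgeR test of the interaction between assay and group with Benjamini-Hochberg adjustment over 7029 genes. In the libraries labelled WT-shARF against WT-shSCR, the log2 difference was -1.41 for *Bahd1* and 0.75 for *Rps14*. In ArfKO-shSCR against WT-shSCR it was -2.14 for *Bahd1*, -1.84 for *Nenf* and -1.67 for *P2rx5*. In the same comparison it was 1.40 for *Fth1*, 1.13 for *Tpt1*, 0.96 for *Pabpc1*, 0.84 for *Rplp1*, 0.74 for *Eef1b2*, 0.74 for *Rpl23a* and 0.69 for *Rplp0*. The WT-shSCR libraries are the reference in both comparisons. In ArfKO-shSCR, *Nenf* and *P2rx5* were not called with DESeq2 (adjusted p = 0.153 and 0.112). *P2rx5* had only 28 and 33 footprint reads in WT-shSCR. *Pabpc1* and *Rpl23a* were not called with the replicate block in edgeR (adjusted p = 0.0635 and 0.0555).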

How the results depend on the processing

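Of the 3327 calls, 2399 to 2738 were kept when a library was left out and 2563 with DESeq2. None of the calls tested under an alternative changed direction, with 3317 of them tested with DESeq2 and 2266 with 50 or more counts. Of 120 genes named in the text and called, 19 were not called under at least one alternative, and their values stand beside them. Leaving out each library gave 1333 to 1524 higher and 1154 to 1356 lower genes, and DESeq2 gave 1357 and 1206. With a 2-fold minimum 662 higher and 725 lower genes were left. The replicate numbers share only a number (r = 0.0708 between the assays' replicate differences), and with the replicate block 1816 genes were higher and 1726 lower, all 3327 calls included. The block changed the tests between groups to 25 higher and 13 lower genes in WT-shARF and to 10 and 12 in ArfKO-shSCR, and DESeq2 to 35 and 2 in WT-shARF and to 40 and 15 in ArfKO-shSCR. The cause was not tested. Genes near 0 that were not called changed sign. *Creld2* was at -0.022 with upper quartile factors and *Larp1* at 0.024 with no count minimum. Leaving out each library gave ranges of -0.012 to 0.22 for *Col3a1*, -0.099 to 0.11 for *Creld2*, -0.16 to 0.0074 for *Csf1r*, -0.11 to 0.30 for *Gapdh*, -0.13 to 0.079 for *Larp1*, -0.17 to 0.51 for *Pabpc1* and -0.025 to 0.14 for *Rpl14*. With the length trend removed, the median of oxidative phosphorylation genes was -0.18 and of replacement histones -0.13. With the GC trend removed, an alternative chosen after seeing the data, it was -0.090 for CCT subunits and 0.10 for tubulins. At this depth 68.6% of simulated 2-fold changes were recovered. In the lowest of 5 bins by level 6.83% of genes were called higher and 20.1% lower.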
